A study of Sus scrofa with 12 samples.

Results

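The aryl hydrocarbon receptor (AHR) pathway was followed through 6 genes of cultured porcine arterial endothelial cells (ECs), the receptor gene AHR, its partner ARNT2, the cytochrome P450 enzymes CYP1A1 and CYP1B1, and the feedback inhibitors AHRR and TIPARP. They were taken by symbol from the 21153 genes of the deposited count table, and all 6 were found and passed the filter on low counts in every comparison. ECs of 3 pigs were exposed for 48 h to laminar wall shear stress (WSS), the drag of flowing fluid on the cell surface. The values were 2 dyne/cm2 (low, aneurysmal), 30 dyne/cm2 (physiological) and 80 dyne/cm2 (supra-high, aneurysmal). Every donor contributed 1 culture at 2, 1 at 80 and 2 at 30 dyne/cm2, which gives 4 groups of 3 libraries and 12 libraries in all. The 2 sets at 30 dyne/cm2 are called set 1 and set 2, as numbered in their labels. Low WSS was compared with set 1, and supra-high WSS with set 2.

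All cultures were primary cells kept in DMEM with fetal calf serum and heparin on gelatin, and neither a genetic change nor an AHR ligand is named among the treatments. According to the methods the cells came from coronary arteries of pigs aged 8 months, whereas the labels call them aortic. By the labels, supra-high WSS with its controls was run in another type of flow slide and at another seeding density than low WSS with its own, whereas the methods name 1 slide for all. Which set at 30 dyne/cm2 was run in which slide is not stated by name, so the sets and the slide types cannot be told apart here. A static culture, a culture exposed to an AHR ligand and one with AHR blocked were not analysed here.

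AHR is a receptor of the bHLH-PAS family that rests in the cytoplasm bound to chaperones. Once a ligand such as a polycyclic hydrocarbon or a tryptophan metabolite binds, it moves to the nucleus, pairs with ARNT or ARNT2 and activates genes that carry its recognition motif, of which CYP1A1 and CYP1B1 are the classical examples. Their enzymes oxidise the ligands, and AHRR and TIPARP, also AHR targets, restrain the receptor, so that the pathway holds itself in check. In ECs, CYP1A1 and CYP1B1 are known to respond to laminar flow.

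Library totals ran from 29606854 to 41058902 counted reads (median 33871914). The ECs carried endothelial transcripts at all WSS values. The 6 endothelial markers found in the table summed to between 3996 and 5194 CPM (counts per 1000000 counted reads of the library) at 2 dyne/cm2, 6314 and 7103 in set 1, 5909 and 6758 in set 2, and 7292 and 7991 at 80 dyne/cm2. Of the 5 smooth muscle markers SMTN made up nearly the whole sum of 43.5 to 82.9 CPM, MYH11, ACTA2 and CNN1 stayed at or below 0.769 CPM, and DES had 0 counts in every library. The 4 fibroblast markers summed to 6.08 to 65.7 CPM at 2 dyne/cm2, 3.12 to 20.3 in set 1, 2.03 to 16.2 in set 2 and 1.59 to 10.4 at 80 dyne/cm2. The 4 leukocyte markers summed to 7.48 to 10.6 CPM at 2 dyne/cm2, 14.4 to 21.6 in set 1, 11.7 to 23.9 in set 2 and 13.2 to 25.9 at 80 dyne/cm2. Most of that sum was CD68, a lysosomal protein used as a macrophage marker, which had 4.80 to 21.1 CPM and fell at 2 dyne/cm2 (log2 fold change -1.17, adjusted p = 0.00961, edgeR quasi-likelihood test). CD14 reached 4.91 CPM, while the defining leukocyte genes PTPRC and CD3E stayed at or below 0.0591 CPM. The epithelial markers stayed at or below 0.169 CPM in sum. The endothelial and leukocyte sums were lower and the fibroblast sum higher at 2 dyne/cm2, but the markers did not all share this. PECAM1 (log2 fold change -0.71) and TEK (-2.95) passed at 2 dyne/cm2, while CDH5 (-0.11), TIE1 (-0.18), ERG (-0.22) and KDR (-1.27) did not. COL1A1 had 18.0 ± 26.7 CPM (SD, n = 3) there, against 4.09 ± 4.34 in set 1, and did not pass. PDGFRA (1.09) passed and LUM (-0.11) did not. The part of these markers in the results below was not tested. In these bulk libraries fewer cells that express a gene and less of its RNA per cell cannot be told apart.

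CYP1B1, a P450 enzyme that oxidises hydrocarbons, oestradiol and fatty acids, gave the largest change of the 6 genes, with fewer reads at 2 dyne/cm2 than at 30 dyne/cm2 in each donor. At 2 dyne/cm2 it had 10.98, 63.1 and 4.19 CPM in donors 1, 2 and 3. In set 1 at 30 dyne/cm2 it had 51.1, 186 and 59.8 CPM. The groups overlapped, because donor 2 had more CYP1B1 at 2 dyne/cm2 than the other two donors at 30 dyne/cm2, yet within donors 1, 2 and 3 CYP1B1 was 4.65-fold, 2.95-fold and 14.3-fold lower. Group means were 26.1 ± 32.2 CPM (SD, n = 3) and 98.9 ± 75.5 CPM (SD, n = 3). In a fit of all genes with the donor as a term, the log2 fold change was -2.45 (SE 0.43) and the adjusted p 0.0197 (edgeR quasi-likelihood test, Benjamini-Hochberg adjustment), which places CYP1B1 at rank 110 from the lowest of 11226 genes. Without the donor term (no replicate block) the log2 fold change was -1.95 (SE 1.01) and the adjusted p was 0.247 in the edgeR quasi-likelihood test, so the call rests on comparing cultures of the same pig. With the donor term CYP1B1 stayed called when any single library was dropped, with adjusted p-values of 0.0101 to 0.0299 (edgeR quasi-likelihood test).

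Under supra-high WSS the donors did not move together for CYP1B1 when compared with set 2. In set 2 at 30 dyne/cm2 it had 18.4, 254 and 47.0 CPM in donors 1, 2 and 3, and at 80 dyne/cm2 10.5, 73.3 and 47.9 CPM. The ratio of 80 over 30 dyne/cm2 was 0.572 in donor 1, 0.289 in donor 2 and 1.02 in donor 3. With the donor term the log2 fold change was -0.83 (SE 0.29) and the adjusted p 0.125 (edgeR quasi-likelihood test), and the means of 106 ± 128 and 43.9 ± 31.6 CPM (SD, n = 3) had wide spreads. In order of their means the conditions ran from 2 dyne/cm2 over 80 dyne/cm2 and set 1 to set 2. Set 1 had 51.1, 186 and 59.8 CPM in donors 1, 2 and 3. Against this other control set all 3 donors had less CYP1B1 at 80 dyne/cm2. The sets at 30 dyne/cm2 did not differ beyond their spread, with a log2 difference of -0.44 (SE 0.33) for set 2 against set 1 and an adjusted p of 0.498 in the edgeR quasi-likelihood test.

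CYP1A1 is the enzyme most widely used as a read-out of AHR activity, and its gene lies on chromosome 7 of Sscrofa11.1 at 58802887 to 58809155. It did not pass the test in either comparison. At 2 dyne/cm2 it had 103, 455 and 92.7 CPM in donors 1, 2 and 3, against 138, 433 and 330 CPM in set 1. Donor 3 had 3.56-fold less CYP1A1 at 2 dyne/cm2 and donor 1 had 1.34-fold less, while in donor 2 the ratio of 2 over 30 dyne/cm2 was 1.05. With the donor term the log2 fold change was -0.70 (SE 0.36, adjusted p = 0.202, edgeR quasi-likelihood test).

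The means of CYP1A1 were 217 ± 206 and 300.5 ± 150 CPM (SD, n = 3) at 2 dyne/cm2 and in set 1. Set 2 had 176, 1009 and 392 CPM and the cultures at 80 dyne/cm2 had 315, 584 and 572 CPM. Against set 2 donors 1 and 3 had 1.79-fold and 1.46-fold more CYP1A1 at 80 dyne/cm2, and donor 2 had 1.73-fold less. The log2 fold change was 0.24 (SE 0.26, adjusted p = 0.602, edgeR quasi-likelihood test) with the donor term and -0.044 without it. It was -0.038 without replicate 1 of set 2 and -0.041 without replicate 1 at 80 dyne/cm2. Against the other control set, set 1 with 138, 433 and 330 CPM, all 3 donors had more CYP1A1 at 80 dyne/cm2. In all 3 donors CYP1A1 was higher in set 2 than in set 1, by 1.27-fold, 2.33-fold and 1.19-fold, although this difference of 0.59 (SE 0.20) on the log2 scale had an adjusted p of 0.207 in the edgeR quasi-likelihood test. With set 2 in place of set 1 as control, the log2 fold change of CYP1A1 under low WSS was -1.30 with an adjusted p of 0.0233 (edgeR quasi-likelihood test), a contrast that also crosses the sets.

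CYP1A2, the neighbour of CYP1A1 on chromosome 7 (58779529 to 58786155), is a close relative expressed in liver. It had 1 to 8 counts per library, or at most 0.250 CPM, and was not tested. Reads that map equally well to both genes were discarded by the authors, so the CYP1A1 values count only reads that fit CYP1A1 alone.

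**Figure D1:**
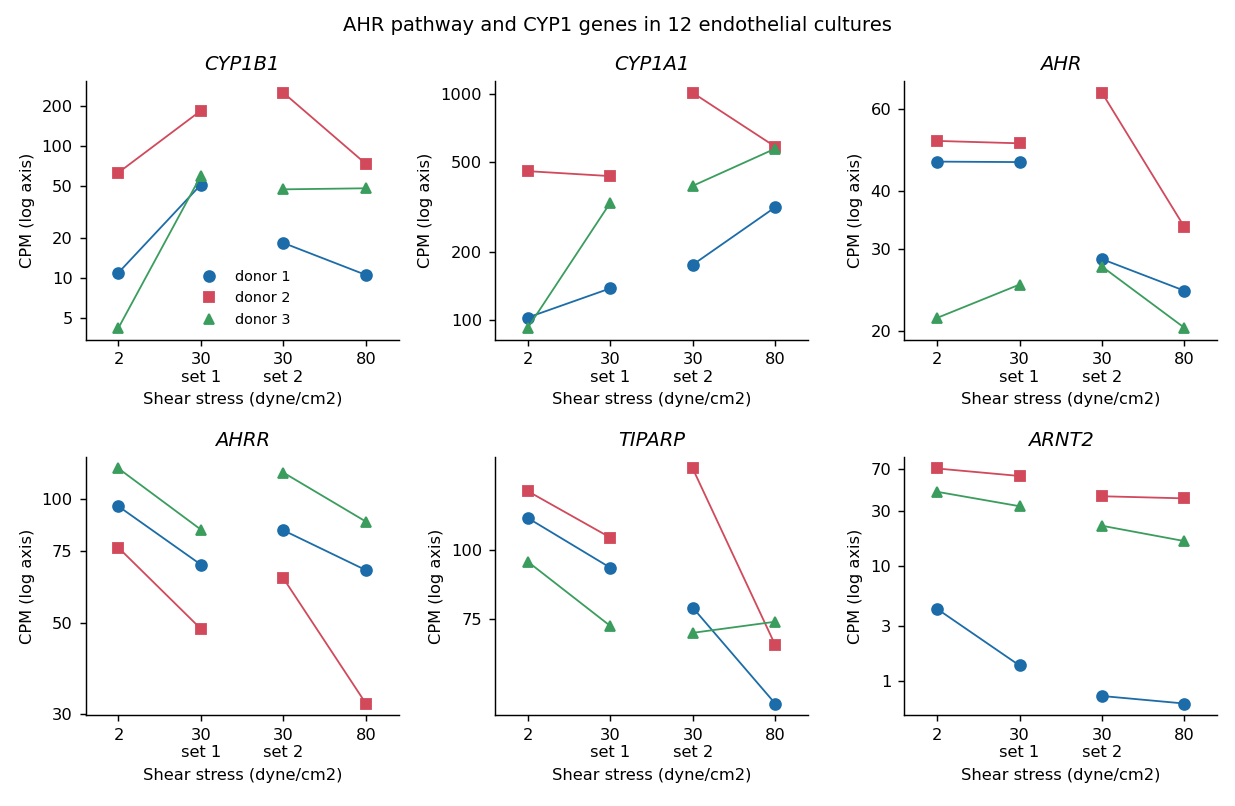
CPM of the 6 AHR pathway genes in each of the 12 libraries (log axis, 1 scale per gene) against wall shear stress in dyne/cm2; colour and symbol mark the donor and lines join cultures of 1 donor within a comparison. CYP1B1 lies below its control at 2 dyne/cm2 in all 3 donors, AHRR lies above it at 2 and below it at 80 dyne/cm2 in all 3, and ARNT2 of donor 1 stays at or below 4.24 CPM.

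The receptor gene AHR (chromosome 9, 86511866 to 86555950) showed no detectable difference between 2 and 30 dyne/cm2. Donors 1, 2 and 3 had 46.3, 51.2 and 21.4 CPM at 2 dyne/cm2 and 46.2, 50.6 and 25.2 CPM in set 1. Each donor kept its place, and the log2 fold change was -0.06 (SE 0.09, adjusted p = 0.656, edgeR quasi-likelihood test with the donor term). Without replicate 3 at 2 dyne/cm2 it was 0.0057.

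Under supra-high WSS AHR had 24.4, 33.5 and 20.4 CPM, against 28.6, 65.0 and 27.5 CPM in set 2. All 3 donors were lower at 80 dyne/cm2, by 1.17-fold, 1.94-fold and 1.35-fold. With the donor term the log2 fold change was -0.51 (SE 0.12) and the adjusted p 0.0476 (edgeR quasi-likelihood test), under the threshold of 0.05 but short of a 2-fold change. Its side of the threshold was not stable. The adjusted p in the edgeR quasi-likelihood test was 0.735 without the donor term, 0.0506 with relative log expression normalization, 0.169 and 0.156 without replicate 2 of set 2 or of the 80 dyne/cm2 group, and 0.181 and 0.179 without replicate 3 of these groups. The means were 39.6 ± 16.0, 40.7 ± 13.6, 40.4 ± 21.3 and 26.1 ± 6.71 CPM (SD, n = 3) at 2 dyne/cm2, in set 1, in set 2 and at 80 dyne/cm2.

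ARNT2, a bHLH-PAS partner of AHR best known from neurons (chromosome 7, 49259118 to 49450471), was set apart by its donors. Donor 1 had 4.24, 1.36, 0.741 and 0.637 CPM at 2 dyne/cm2, in set 1, in set 2 and at 80 dyne/cm2, which rest on 23 to 166 counts. In the same order donor 2 had 70.5, 60.6, 40.4 and 38.7 CPM and donor 3 had 44.2, 33.1, 22.4 and 16.5 CPM. Donor 1 lay below the other two in every library, and the lowest and highest library differed 111-fold. Donor 2 was above donor 3 in each of the 4 groups, but their ranges overlapped, since donor 3 at 2 dyne/cm2 (44.2 CPM) exceeded donor 2 in set 2 and at 80 dyne/cm2. Within every donor the 4 values ran in the same order, highest at 2 dyne/cm2 and lowest at 80 dyne/cm2.

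None of these steps of ARNT2 passed the test. The log2 fold change was 0.66 (SE 0.27, adjusted p = 0.130) at 2 dyne/cm2 and -0.18 (SE 0.13, adjusted p = 0.422) at 80 dyne/cm2 in edgeR's quasi-likelihood test with the donor term. Set 2 was lower than set 1, with ratios of 0.543, 0.666 and 0.676 in donors 1, 2 and 3, a log2 difference of -0.64 (SE 0.09) with an adjusted p of 0.0741 (edgeR quasi-likelihood test). With set 2 as control instead, the log2 fold change at 2 dyne/cm2 was 1.24 with an adjusted p of 0.0390 (edgeR quasi-likelihood test).

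AHRR encodes a repressor that resembles AHR and competes with it for ARNT (chromosome 16, 79730920 to 79810183). It moved in opposite directions under the aneurysmal WSS values. At 2 dyne/cm2 donors 1, 2 and 3 had 96.2, 76.2 and 119 CPM, against 69.3, 48.3 and 84.4 CPM in set 1. The groups overlapped, but every donor was higher at 2 dyne/cm2, by 1.39-fold, 1.58-fold and 1.41-fold. The log2 fold change was 0.56 (SE 0.08) and the adjusted p 0.0123 (edgeR quasi-likelihood test with the donor term), and the adjusted p stayed between 0.0345 and 0.0483 when each library was left out in turn.

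Under supra-high WSS AHRR had 67.2, 31.8 and 88.3 CPM, against 84.1, 64.2 and 116 CPM in set 2. Each donor was lower at 80 dyne/cm2, by 1.25-fold, 2.02-fold and 1.32-fold, and the log2 fold change was -0.54 (SE 0.12, adjusted p = 0.0384, edgeR quasi-likelihood test with the donor term). The means were 97.2 ± 21.4 and 67.3 ± 18.1 CPM (SD, n = 3) at 2 dyne/cm2 and in set 1, and 88.2 ± 26.3 and 62.4 ± 28.6 CPM (SD, n = 3) in set 2 and at 80 dyne/cm2. Neither change of AHRR reached 2-fold. Without the donor term the edgeR quasi-likelihood test gave an adjusted p of 0.233 under low and of 0.784 under supra-high WSS. Without replicate 2 of set 2 or of the 80 dyne/cm2 group the adjusted p at 80 dyne/cm2 was 0.0961 and 0.0978, and without replicate 3 of these groups it was 0.124 for both (edgeR quasi-likelihood test).

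The control sets mattered for AHRR. Set 2 lay above set 1 by 1.21-fold, 1.33-fold and 1.38-fold in donors 1, 2 and 3 (log2 difference 0.37, SE 0.06, adjusted p = 0.103, edgeR quasi-likelihood test). Against the other set the log2 fold change of AHRR was 0.19 under low WSS (adjusted p = 0.0854) and -0.17 under supra-high WSS (adjusted p = 0.608, edgeR quasi-likelihood test). The directions were the same with either set, and the sizes were smaller with the crossed sets.

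TIPARP, an enzyme that attaches ADP-ribose to AHR and dampens it (chromosome 13, 96496386 to 96524879), had the same direction as AHRR at 2 dyne/cm2. Donors 1, 2 and 3 had 114, 128 and 95.3 CPM at 2 dyne/cm2 and 92.9, 105 and 72.9 CPM in set 1. The ratios of 1.23, 1.21 and 1.31 were close to each other. With the donor term the log2 fold change was 0.34 (SE 0.08) and the adjusted p 0.0405 (edgeR quasi-likelihood test), and without that term the adjusted p was 0.193. Leaving out any 1 of the 6 libraries lifted the adjusted p to between 0.0746 and 0.180 (edgeR quasi-likelihood test), with log2 fold changes of 0.28 to 0.38.

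TIPARP had 78.7, 141 and 70.8 CPM in set 2 and 52.7, 67.3 and 74.2 CPM at 80 dyne/cm2. Donors 1 and 2 were lower at 80 dyne/cm2 by 1.49-fold and 2.09-fold, while the ratio of 80 over 30 dyne/cm2 in donor 3 was 1.05. The log2 fold change was -0.49 (SE 0.19, adjusted p = 0.149, edgeR quasi-likelihood test with the donor term). Means of TIPARP were 113 ± 16.4, 90.4 ± 16.4, 96.7 ± 38.2 and 64.7 ± 10.95 CPM (SD, n = 3) from 2 dyne/cm2 over set 1 and set 2 to 80 dyne/cm2. The sets differed by 0.03 (SE 0.13) on the log2 scale.

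Counted together, 1 of the 6 genes, CYP1B1, was called at 2 dyne/cm2 by both thresholds (adjusted p under 0.05 and at least a 2-fold change), where 9.6% of all 11226 genes tested were called. By the adjusted p alone 2 were higher and 1 lower, where 13.4% and 12.4% of all genes were. CYP1B1, AHRR, TIPARP and ARNT2 kept 1 direction in all 3 donors, and so did 65.5% of all genes. At 80 dyne/cm2 0 of the 6 genes were called by both thresholds in DESeq2 and in the likelihood ratio test, whose shares of all genes are not given here. In edgeR's quasi-likelihood test with the donor term 0 of the 6 were called at 80 dyne/cm2 as well, where 2.2% of 11187 genes were. There 2 genes, AHR and AHRR, passed by the adjusted p alone, both lower, where 4.04% of all genes were lower, and 4 had an unadjusted p under 0.05, where 26.1% of all genes did. One direction in all 3 donors was kept by AHR, AHRR and ARNT2, and by 47.1% of all genes. Higher genes by the adjusted p numbered 0 of the 6, beside 4.36% of all genes. Over the 6 genes the median log2 fold change came to 0.14 under low WSS, beside 0.0025 for all genes, and to -0.50 under supra-high WSS, beside -0.0058. Without the donor term 0 of the 6 genes passed in either comparison (edgeR quasi-likelihood test), and 0 had an unadjusted p under 0.05, where 30.9% and 8.3% of all genes did. Of all genes 5.66% were then called under low WSS and 0% under supra-high WSS.

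**Figure D2:**
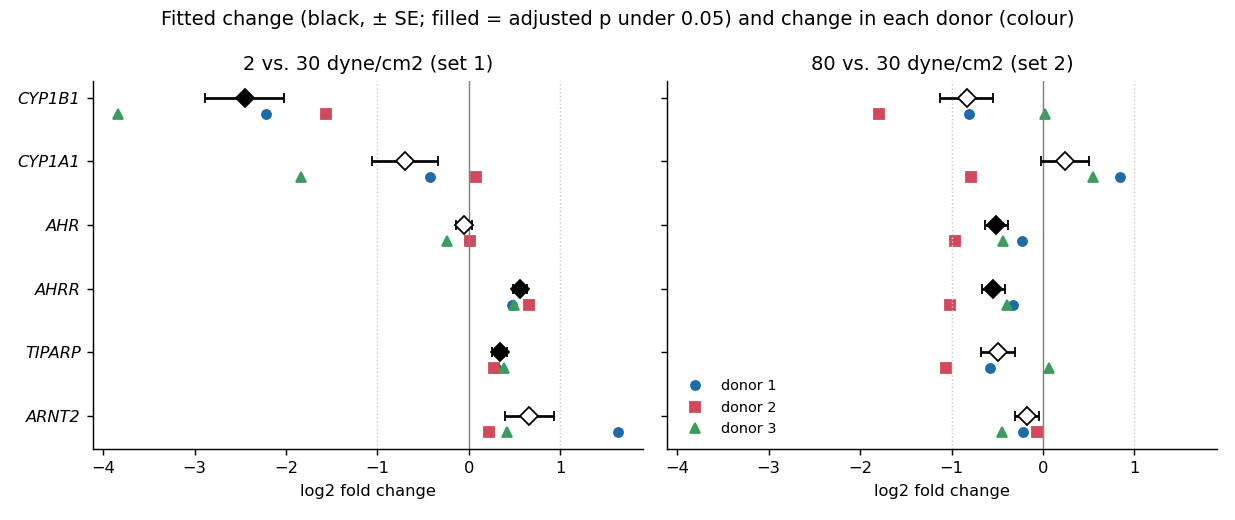
Log2 fold change of the 6 genes at 2 (left) and 80 dyne/cm2 (right) against 30 dyne/cm2; black diamonds are the fit with a donor term with SE bars (filled where the adjusted p was under 0.05), coloured symbols are the ratios of CPM in each donor, and dotted lines mark a 2-fold change. The fitted change of CYP1B1 at 2 dyne/cm2 (-2.45) lies beyond the 2-fold line, those of AHRR lie on opposite sides of 0 (0.56 and -0.54), and CYP1A1 has donors on both sides of 0 in both panels.

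Whether a gene answered differently to low and to supra-high WSS was tested directly over the 12 libraries, as the log2 fold change at 80 minus that at 2 dyne/cm2, each against its own set. AHRR differed by -1.08 (SE 0.17, adjusted p = 0.00127) and TIPARP by -0.81 (SE 0.27, adjusted p = 0.0431) in edgeR's quasi-likelihood test with the donor term. For AHRR the adjusted p lay between 0.000581 and 0.00534 when each of the 12 libraries was left out, and the value was -0.93, under 2-fold, without replicate 2 at 80 dyne/cm2, so that 0 of the 6 genes were then called by both thresholds, and 2 were without replicate 3 at 80 dyne/cm2. For TIPARP the adjusted p was above 0.05 in 8 of the 12 fits, those without replicates 1 or 3 at 2 dyne/cm2, 2 or 3 of set 1, 1 or 2 of set 2, and 1 or 2 at 80 dyne/cm2, with the highest value of 0.100 without replicate 2 of set 2. Without the donor term the values were -1.01 for AHRR (adjusted p = 0.218) and -0.85 for TIPARP (adjusted p = 0.135, edgeR quasi-likelihood test). The other 4 genes did not pass, among them CYP1B1 at 1.59 (SE 0.80, adjusted p = 0.144) and CYP1A1 at 0.93 (SE 0.49, adjusted p = 0.166, edgeR quasi-likelihood test). This fit had 1 term per donor over both sets, so differences between the sets of a donor stayed in its spread. For CYP1B1 the SE was 0.43 and 0.29 in the separate comparisons at 2 and 80 dyne/cm2. A gene that did not pass here may therefore still differ between the responses. By both thresholds 1 of 6 was called, where 15.7% of 11130 genes were, and by the adjusted p alone 2 were, where 37% of all genes were.

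Between the sets at 30 dyne/cm2, 0 of the 6 genes passed edgeR's quasi-likelihood test with the donor term, where 0.00896% of 11163 genes were called, and 3 had an unadjusted p under 0.05 (CYP1A1, AHRR and ARNT2), where 19.2% of all genes did. These 3 genes had the same direction in all 3 donors, as had 43.8% of all genes. In DESeq2 with the donor term all 3 passed by the adjusted p alone (0.0391, 0.0139 and 0.00152). AHRR (0.00410) and ARNT2 (4.58e-05) did so in edgeR's likelihood ratio test. The shares of all genes that passed by the adjusted p alone in DESeq2 and in the likelihood ratio test are not given here. These passes therefore have no background to be judged against.

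As a description chosen after the values were seen, CYP1A1 reads were divided by CYP1B1 reads within each library, which does not compare transcript numbers because transcript lengths were not used. At 2 dyne/cm2 there were 9.38, 7.22 and 22.1 CYP1A1 reads per CYP1B1 read in donors 1, 2 and 3, against 2.71, 2.33 and 5.52 in set 1. The ratio was higher at 2 dyne/cm2 in every donor, by 3.46-fold, 3.10-fold and 4.01-fold, with a mean log2 difference of 1.81 ± 0.19 (SD, n = 3). Cultures at 80 dyne/cm2 had 29.9, 7.97 and 11.95 CYP1A1 reads per CYP1B1 read, against 9.54, 3.98 and 8.34 in set 2. The ratio was again higher in every donor, by 3.13-fold, 2.00-fold and 1.43-fold, with a mean log2 difference of 1.06 ± 0.57 (SD, n = 3). The sets themselves differed, set 2 being higher by 3.52-fold, 1.71-fold and 1.51-fold, and their mean log2 difference of 1.06 ± 0.66 (SD, n = 3) was as large as that at 80 dyne/cm2. An exact two-sided sign-flip permutation test over 3 donors gave p = 0.25 for each of these comparisons, the smallest p that 3 pairs allow, so that the test could not pass 0.05.

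**Figure D3:**
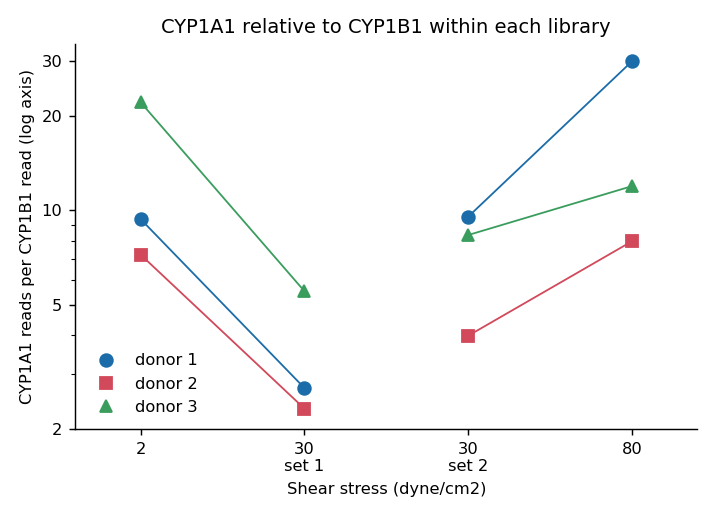
Number of CYP1A1 reads per CYP1B1 read in each library (log axis) by wall shear stress in dyne/cm2, with lines joining cultures of 1 donor. In each donor the ratio at 2 dyne/cm2 (7.22 to 22.1) lies above its control in set 1 (2.33 to 5.52), and that at 80 dyne/cm2 lies above its control in set 2, while set 2 also lies above set 1.

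The 6 genes differed in how far their level followed the donor. Of the variance of log2 CPM over the 12 libraries, the donor held 91.1% for ARNT2, 63.5% for AHRR, 63.0% for AHR, 51.4% for CYP1A1, 50.6% for CYP1B1 and 21.2% for TIPARP, beside a median of 30.7% over all genes tested. Condition held 52.2% for TIPARP, 34.7% for CYP1A1, 34.5% for CYP1B1, 31.2% for AHRR, 20.9% for AHR and 7.16% for ARNT2 (median of all genes 42.0%). Donor 2 had the highest level of CYP1B1, AHR and ARNT2 in each of the 4 groups and the lowest level of AHRR in each. It also had the highest CYP1A1 in all 4 groups.

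Relatives of AHR in the bHLH-PAS family, which sense hypoxia or drive the circadian clock, were lower at 2 dyne/cm2 where they passed the test. Of 13 such genes 8 were tested, and 4 fell at 2 dyne/cm2 while none rose (by the adjusted p alone, where 12.4% of all genes were lower). ARNTL (BMAL1), a core clock factor, had a log2 fold change of -1.21 (SE 0.21, adjusted p = 0.0197) and NPAS1, a neuronal repressor, of -1.32 (SE 0.28, adjusted p = 0.0302), both past the 2-fold threshold (edgeR quasi-likelihood test). HIF1A, the oxygen-regulated factor that also pairs with ARNT, fell from 1017 ± 254 to 624 ± 154 CPM (SD, n = 3), a log2 fold change of -0.69 (adjusted p = 0.0140), and the clock factor NPAS2 had -0.48 (adjusted p = 0.0291, edgeR quasi-likelihood test). Under supra-high WSS ARNTL (0.45, adjusted p = 0.0318) and NPAS1 (0.88, adjusted p = 0.0436, edgeR quasi-likelihood test) were higher, as were 4.36% of all genes. The second most abundant relative, EPAS1, known from hypoxic ECs, had log2 fold changes of -0.06 and 0.42, and ARNT, the usual partner of AHR, had -0.14 and -0.30, none of which passed. The median of the 8 was -0.31 at 2 and 0.34 at 80 dyne/cm2, and none of them passed without the donor term.

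Other genes described as AHR targets in various cells did not follow 1 course. Of 11 listed, 10 were found and 8 tested. Of these, 3 fell at 2 dyne/cm2 by the adjusted p, namely NQO1, a quinone reductase (-1.33, SE 0.16, adjusted p = 0.00881), PTGS2, the inducible cyclooxygenase (-1.21, SE 0.12, adjusted p = 0.00665), and HES1, a Notch target (-0.87, SE 0.18, adjusted p = 0.0277, edgeR quasi-likelihood test), where 12.4% of all genes were lower. None of the 3 passed without the donor term, with adjusted p-values of 0.0623, 0.175 and 0.0533 (edgeR quasi-likelihood test). NQO1 had 173, 196 and 268 CPM at 2 dyne/cm2 in donors 1, 2 and 3 and 475, 366 and 854 CPM in set 1, with no overlap of the groups. NFE2L2, the factor behind the antioxidant response, had log2 fold changes of 0.31 and -0.18, which did not pass. At 80 dyne/cm2 PTGS2 alone passed, with 0.70 (SE 0.10, adjusted p = 0.0107, and 0.922 without the donor term, edgeR quasi-likelihood test), where 4.36% of all genes were higher. Its controls were far apart in donor 1, with 169 CPM in set 1 and 14.5 CPM in set 2. Medians of the 8 genes were -0.47 at 2 and 0.34 at 80 dyne/cm2. In the direct test of the difference between the responses 3 of the 8 passed on the higher side and 1, NFE2L2, on the lower side, where 37% of all genes passed. NFE2L2 had -0.49 there (adjusted p = 0.0212, and 0.0442 without the donor term, edgeR quasi-likelihood test).

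Genes that act on the receptor or its ligands showed no call by the adjusted p at 2 or 80 dyne/cm2 (edgeR quasi-likelihood test). Of all genes 25.8% passed by the adjusted p at 2 dyne/cm2 and 8.4% at 80 dyne/cm2, each against 30 dyne/cm2. The genes without a call were the 8 coregulators, the 2 chaperones found in the table and 4 tested enzymes of tryptophan and kynurenine metabolism. These enzymes were AFMID, KYAT1, KYAT3 and HAAO, not all of which act on the way to kynurenine. The most abundant coregulators SMARCA4 and EP300 had log2 fold changes of 0.064 and -0.0015 at 2 and of 0.13 and -0.00012 at 80 dyne/cm2. The chaperones HSP90AB1 and PTGES3 had 0.09 and -0.33 at 2 and 0.12 and 0.06 at 80 dyne/cm2. KYAT3 and AFMID, which act on kynurenine and its precursor, had 0.17 and 0.27 at 2 and 0.07 and -0.41 at 80 dyne/cm2. IDO1, IDO2 and TDO2, the enzymes that open the tryptophan ring, stayed at or below 0.135 CPM. In the direct test of the difference between the responses, 2 of the 8 coregulators, 1 of the 2 chaperones and 1 of the 4 enzymes passed by the adjusted p, where 37% of all genes did. They were the coactivator NCOA1 (-0.72, adjusted p = 0.0138), the ubiquitin ligase scaffold CUL4B (-0.48, adjusted p = 0.0442), PTGES3 (0.41, adjusted p = 0.0331) and AFMID (-0.67, adjusted p = 0.00579, edgeR quasi-likelihood test). AFMID alone of the 4 passed without the donor term (adjusted p = 0.0433, edgeR quasi-likelihood test).

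By the adjusted p 25.8% of all genes passed at 2 dyne/cm2 and 8.4% at 80 dyne/cm2. Among the 4 partners that hand electrons to P450 enzymes, cytochrome b5 (CYB5A) alone passed, in both comparisons. It had 161, 129 and 198 CPM at 2 dyne/cm2 and 57.3, 54.2 and 33.6 CPM in set 1, with no overlap. The log2 fold change was 1.78 (SE 0.29, adjusted p = 0.0166), and without the donor term the adjusted p was 0.0162 (edgeR quasi-likelihood test). With 80 dyne/cm2 CYB5A had 52.9, 32.9 and 42.8 CPM against 88.6, 65.6 and 54.3 CPM in set 2, a log2 fold change of -0.66 (SE 0.13, adjusted p = 0.0235, edgeR quasi-likelihood test with the donor term). This call was lost without the donor term, with an adjusted p of 0.533 (edgeR quasi-likelihood test). POR (-0.30 and 0.34), CYB5R3 (-0.04 and -0.01) and PGRMC1 (-0.06 and -0.03) did not pass in either comparison. In the direct test of the difference between the responses POR (0.65, adjusted p = 0.00175) and CYB5A (-2.45, adjusted p = 0.000671) passed, as did 37% of all genes. Without the donor term both passed as well (adjusted p = 0.00934 and 0.00332, edgeR quasi-likelihood test).

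Of 26 further P450 genes in the table, 11 were tested at 2 dyne/cm2, where 6 rose and 2 fell by the adjusted p, beside 13.4% and 12.4% of all genes. CYP24A1, which inactivates vitamin D, had 17.3, 90.2 and 4.60 CPM at 2 dyne/cm2 in donors 1, 2 and 3, against 0.365, 10.6 and 0.0295 CPM in set 1, the last value being 1 read. Its log2 fold change was 4.18 (SE 0.60, adjusted p = 0.0124, edgeR quasi-likelihood test). The oxysterol hydroxylase CYP7B1 (1.68, adjusted p = 0.0123), the fatty acid hydroxylase CYP4V2 (1.10, adjusted p = 0.0277), CYP27B1 (0.67, adjusted p = 0.0445), CYP2U1 (0.67, adjusted p = 0.0296) and CYP39A1 (0.62, adjusted p = 0.0466) rose as well in edgeR's quasi-likelihood test. CYP51A1 of cholesterol synthesis fell from 361 ± 27.2 to 189 ± 29.2 CPM (SD, n = 3), with a log2 fold change of -0.93 (adjusted p = 0.00715, and 0.0101 without the donor term, edgeR quasi-likelihood test). CYP21A2 was the other that fell (-0.74, adjusted p = 0.0484, edgeR quasi-likelihood test). Without the donor term CYP51A1 was the only one of these 8 to pass. At 80 dyne/cm2 12 were tested and 0 passed (edgeR quasi-likelihood test), where 4.36% of all genes were higher and 4.04% lower. The lower CYP1B1 at 2 dyne/cm2 stood among P450 genes that passed in both directions.

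**Figure D4:**
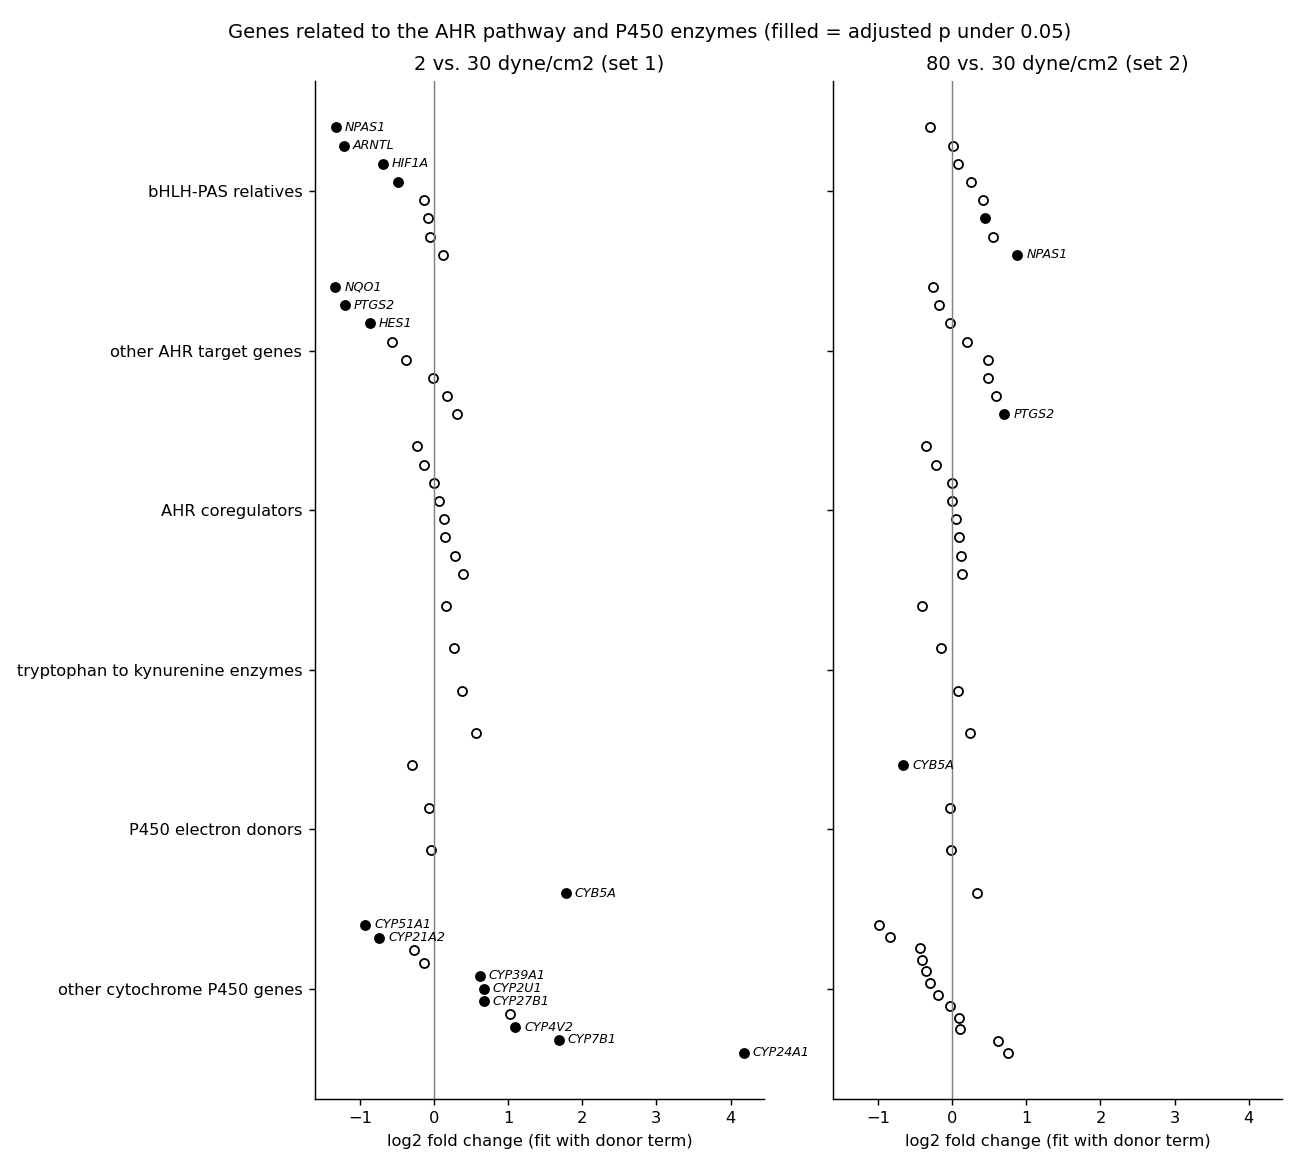
Log2 fold change (fit with a donor term) of the tested genes of 6 lists around the AHR pathway at 2 (left) and 80 dyne/cm2 (right) against 30 dyne/cm2; each circle is 1 gene, filled where the adjusted p was under 0.05, and names are given to those with a log2 change of at least 0.6 in size. Calls at 2 dyne/cm2 are on the lower side for bHLH-PAS relatives and other AHR targets, with NQO1 at -1.33, and on both sides for other P450 genes, from CYP51A1 at -0.93 to CYP24A1 at 4.18.

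The genes most like each member were sought over the 12 libraries as those with the smallest root mean square difference in log2 CPM, after each donor's mean was taken off, among 9676 genes. For CYP1B1 these were PLPP3, a phosphatase of bioactive lipids (0.60), CORO2A (0.65), ARHGDIB (0.66), DTNA (0.67) and ITPRID2 (0.67), where the median gene differed by 1.15. All 5 were lower at 2 dyne/cm2, with log2 fold changes of -2.96, -1.99, -1.61, -1.93 and -1.92. This follows from their choice as the genes closest to CYP1B1 in the same libraries. CYP1B1 itself had a root mean square of 1.15 about the donor means, the same size as the difference of the median gene. At 80 dyne/cm2 the 5 genes had log2 fold changes between -0.27 and 0.35, beside -0.83 for CYP1B1. For AHRR the closest were FRMD6 (0.108), PHKA2 (0.108) and CDS1 (0.114), with a median of 0.362 over all genes. Closest to CYP1A1 was TCTN3 (0.318), to AHR EEIG2 (0.143), to TIPARP GABARAPL1 (0.170) and to ARNT2 LHFPL2 (0.211). The measure is a description, since all libraries of a group share their WSS and culture set.

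**Figure D5:**
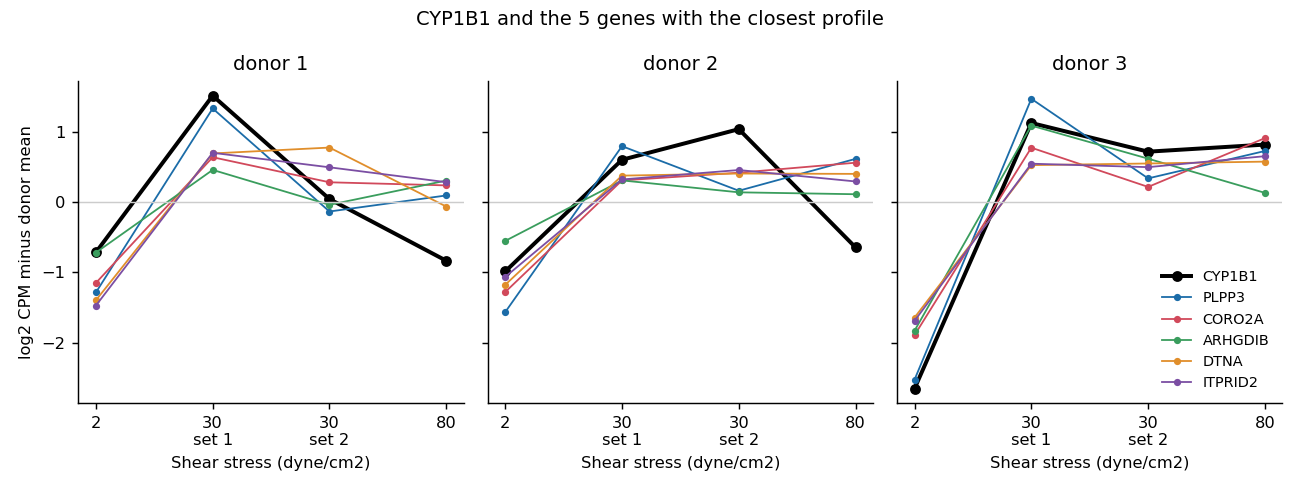
Log2 CPM minus the donor's mean for CYP1B1 (black) and the 5 genes with the smallest root mean square difference from it, by wall shear stress in dyne/cm2, in each donor. All 6 lines are lowest or near their lowest at 2 dyne/cm2, and CYP1B1 alone drops below the donor's mean at 80 dyne/cm2 by more than 0.5 in donors 1 and 2.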

How the data were processed

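RNA of 12 EC cultures of 3 pigs was sequenced (TruSeq libraries, single-end reads of 100 nt). The authors aligned them with STAR to the assembly Sscrofa11.1, dropped those with more than 1 location, and deposited raw counts per gene over the merged exons of its protein-coding isoforms (featureCounts). The submitters' processing notes name CASAVA 1.8.2, STAR 2.4 and featureCounts 1.4.6. Depth was 29606854 to 41058902 counts per library, and no RPKM or gene lengths were used here. Symbols were matched for 14572 of 21153 genes, and positions are those of RefSeq on the same assembly.

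The test was edgeR's quasi-likelihood test (version 4.0.16, R 4.3.3) after TMM normalization, on genes that reached 1 CPM in 3 or more of 6 libraries (6 of 12 for the difference), with Benjamini-Hochberg adjustment over all genes tested. The donor entered as a term, because cultures of 1 donor and passage were compared and the labels carry the donor. As a check, deviations from the group means were correlated. The 18 pairs of libraries from different groups that share a number gave r of 0.624 to 0.862 and the 36 other pairs gave -0.510 to -0.186. The deviations within a group cancel out, so positive values in the first pairs make the other pairs negative on average. The negative range is therefore not a separate check. Thresholds were those of the study, an adjusted p under 0.05 and at least 2-fold. The SE is the size of the log2 fold change divided by the square root of F, and CPM are counts divided by the library total. The labels describe a control for each WSS value without naming its set, so set 1 was paired with 2 dyne/cm2 and set 2 with 80 dyne/cm2, with the crossed choice as an alternative.

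The 6 genes, the gene lists and the tests were chosen with earlier results of these data known. Within each list, genes that passed and the 2 with the highest mean CPM are named, and the 5 closest genes were found for each member. Alternatives were relative log expression normalization, DESeq2 1.42.0, no filter, filterByExpr, the likelihood ratio test, all 12 libraries in 1 fit, the other control set, the adjusted p alone, no donor term, and each library left out. The code was tested on simulated data. In the quasi-likelihood test with the donor term, p-values rest on how far the changes within 3 donors vary. Each gene's spread is drawn towards that of all genes. Only without the donor term does the spread between donors enter as well.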

Additional observations from a re-analysis of the deposited data

Results flagged for a closer look

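Of the 6 genes, AHRR and TIPARP answered differently to supra-high and to low WSS by a direct test of the difference (edgeR quasi-likelihood test over 12 libraries with the donor term, Benjamini-Hochberg adjustment). The log2 fold change at 80 minus that at 2 dyne/cm2 was -1.08 (SE 0.17, adjusted p = 0.00127) for AHRR, which was higher at 2 and lower at 80 dyne/cm2 in 3 of 3 donors. It was -0.81 (SE 0.27, adjusted p = 0.0431) for TIPARP, which was higher at 2 dyne/cm2 in 3 of 3 donors and lower at 80 dyne/cm2 in donors 1 and 2. By the adjusted p 2 of the 6 genes passed, where 37% of all 11130 genes did. Neither passed without the donor term (adjusted p = 0.218 and 0.135, edgeR quasi-likelihood test), and TIPARP was above 0.05 in 8 of the 12 fits that each dropped a library. Because each response is taken against its own set at 30 dyne/cm2, WSS and culture set cannot be told apart in this difference. For AHRR set 2 lay above set 1 by 0.37 (SE 0.06) on the log2 scale. With the other set as control its changes at 2 and 80 dyne/cm2 kept their direction, were smaller and did not pass. Groups of 3 libraries are too small for a check of single outlying libraries.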

How the results depend on the processing

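Without the donor term (no replicate block) the number of genes called was 635 at 2 dyne/cm2, 0 at 80 dyne/cm2, 1006 for the difference and 0 between the sets, with 0 of the 6 genes in each. Log2 fold changes were then -1.95 for CYP1B1, 0.55 for AHRR and 0.33 for TIPARP at 2 dyne/cm2, -0.59 for AHR, -0.47 for AHRR and -0.044 (turned) for CYP1A1 at 80 dyne/cm2, -1.01 for AHRR and -0.85 for TIPARP in the difference, and 0.086 (turned) for CYP1B1 between the sets. By the adjusted p alone 2895, 940, 4117 and 2 genes passed, and 3, 2 and 2 of the 6 genes in the first 3 comparisons. With the other control set 3 of the 6 genes were called at 2 dyne/cm2. The share of all genes called in that fit is not given here, so the 3 have no background to be judged against. CYP1A1 was -1.30, ARNT2 1.24, AHRR 0.19, TIPARP 0.31 and AHR 0.025 (turned) at 2 dyne/cm2 with that set. At 80 dyne/cm2 with the other control set 23 genes were called, and AHR was -0.59 and AHRR -0.17. With all 12 libraries in 1 fit TIPARP was 0.32 at 2 dyne/cm2 (adjusted p = 0.212), AHR was -0.53 at 80 dyne/cm2 (adjusted p = 0.154, edgeR), and 125 genes were called at 80 dyne/cm2 and 0 between the sets. TIPARP at 2 dyne/cm2 was 0.32 without a filter (adjusted p = 0.0593), and AHR at 80 dyne/cm2 was -0.51 with relative log expression (0.0506) and with filterByExpr (0.0521, edgeR). DESeq2 and the likelihood ratio test both gave ARNT2 0.72 at 2 dyne/cm2 (adjusted p = 0.0394 and 0.0449), and the latter gave CYP1B1 -0.83 at 80 dyne/cm2 (adjusted p = 0.0353). Between the sets DESeq2 called 66 genes, the likelihood ratio test 90 and the fit without a filter 46. There CYP1A1 was 0.58 in DESeq2, AHRR 0.36 in DESeq2 and 0.37 in the likelihood ratio test, and ARNT2 was -0.64 in DESeq2, -0.63 in the likelihood ratio test and -0.64 without a filter (adjusted p = 0.0307). The cause was not tested for any of these.

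With each library left out, 740 to 1078 genes were called at 2 dyne/cm2 with 1 of the 6 genes throughout, 138 to 315 at 80 dyne/cm2 with 0, 1484 to 1875 for the difference with 0 to 2, and 0 to 108 between the sets with 0. At 2 dyne/cm2 CYP1B1 ran from -2.95 to -1.88, CYP1A1 from -1.10 to -0.18, AHR from -0.088 to 0.0057, AHRR from 0.52 to 0.60, TIPARP from 0.28 to 0.38 and ARNT2 from 0.34 to 0.95. At 80 dyne/cm2 CYP1B1 ran from -1.31 to -0.36, CYP1A1 from -0.041 to 0.69, AHR from -0.62 to -0.34, AHRR from -0.65 to -0.36, TIPARP from -0.80 to -0.26 and ARNT2 from -0.37 to -0.04. In the difference the ranges were 0.86 to 2.05 for CYP1B1, 0.49 to 1.28 for CYP1A1, -0.71 to -0.27 for AHR, -1.22 to -0.93 for AHRR, -1.11 to -0.59 for TIPARP and -1.22 to -0.49 for ARNT2. Between the sets they were -0.92 to 0.037 for CYP1B1, 0.27 to 0.78 for CYP1A1, -0.31 to 0.23 for AHR, 0.34 to 0.41 for AHRR, -0.16 to 0.17 for TIPARP and -0.67 to -0.60 for ARNT2. Without replicate 1 of either group at 80 vs. 30 dyne/cm2, edgeR estimated an infinite prior degree of freedom, so that a gene's own spread did not enter. The small adjusted p-values of CYP1B1, AHR, AHRR and TIPARP there are not used. In the remaining fits at 80 dyne/cm2 that dropped a library, neither AHR nor AHRR passed. CYP1A1 at 80 dyne/cm2 passed without replicate 2 of either group (0.69 and 0.68). With 3 donors, changes within the spread of the donors' responses were not detectable.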
